A study of Mus musculus with 9 samples.

Results

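The genes described here make fatty acids, join them into triglyceride and store or release them from lipid droplets. They are the 36 genes named on a list of the pathway, of 55385 genes in the deposited table, and all 36 were found there by gene symbol. Each also passed the filter on low counts that left 17680 genes for testing. RNA sequencing was done on 9 libraries of MCP5, a wild-type mouse podocyte line; podocytes are the epithelial cells that wrap the capillaries of the kidney glomerulus. Of these, 3 were control libraries whose treatment label is blank, 3 came from cells given high glucose at 50 mmol/L, and 3 from cells given advanced glycation end products (AGEs, proteins modified by reducing sugars) at 400 µg/mL. The length of treatment, the glucose of the control medium, and any osmotic or carrier protein control are not stated in the labels. All libraries come from 1 line. Since no label says that the numbered libraries of a group grew as separate cultures, the spread behind each p-value may be technical and is that of these libraries alone.

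Cells make saturated fatty acids from acetyl-CoA through malonyl-CoA, and elongases and desaturases then lengthen them and add double bonds. The transcription factor SREBP-1, encoded by Srebf1, is known to drive many of these genes in liver and fat. Acyl chains are activated by acyl-CoA synthetases, joined to glycerol by acyltransferases, and stored as triglyceride in droplets coated with perilipins, from which lipases release them. Lipid droplets are known to build up in the glomeruli of diabetic kidneys.

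Total counts ran from 46284878 to 77242281 per library. The first principal component, with 41.0% of the variance, set the 3 high glucose libraries apart from the other 6, and AGEs library 3 stood apart from the rest on the second. Among podocyte markers, Wt1, Ptpro and Tcf21 stayed under 1 CPM (counts scaled to a fixed library size) throughout, whereas Nphs1 and Synpo were read at means of 21.8 and 22.4 CPM in control, so only some podocyte markers back the label. Markers of tubular cells summed to 123 to 125 CPM in control, 355 to 396 CPM in high glucose and 121 to 158 CPM in AGEs libraries; 3 of the 5 could be tested, all 3 were higher in high glucose than in control, and the defining markers Slc34a1 and Umod were at 0. Markers of parietal epithelial cells summed to 187 to 218, 1070 to 1220 and 197 to 259 CPM in the same order, with 3 of 4 higher in high glucose, among them Cd24a and Pax2. Of 8 adipocyte markers, 7 stayed under 1 CPM in every library, and Lipe, one of the 36 genes, was the eighth. Those marker levels moved with the high glucose results below, and their part in them was not tested.

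Levels of different genes were compared in FPKM, fragments scaled to gene length and library size. In control libraries the genes of desaturation led: Scd1 stood at 136.5 ± 4.56 FPKM (SD, n = 3), Fads2 at 127.5 ± 3.52 FPKM and Fads3 at 102.4 ± 4.55 FPKM, the only 3 of the 36 above 100 FPKM. Scd2 followed at 97.6 ± 1.53 FPKM, with libraries that overlapped those of Fads3. Fads1, Acly and Fasn came next at 89.2 ± 3.27, 60.6 ± 1.56 and 56.2 ± 3.58 FPKM. Plin2 (31.5 ± 0.837 FPKM) and Srebf1 (31.5 ± 1.13 FPKM) did not differ beyond their spread. In all, 30 genes had a control mean of at least 1 FPKM and 20 of at least 10 FPKM. Pparg, the adipocyte regulator PPARγ, Fabp4, the adipocyte fatty acid carrier, and Mgll, the lipase of monoacylglycerol, were the 3 genes under 1 CPM in every library, so the cells carried almost no RNA of those genes.

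**Figure D1:**
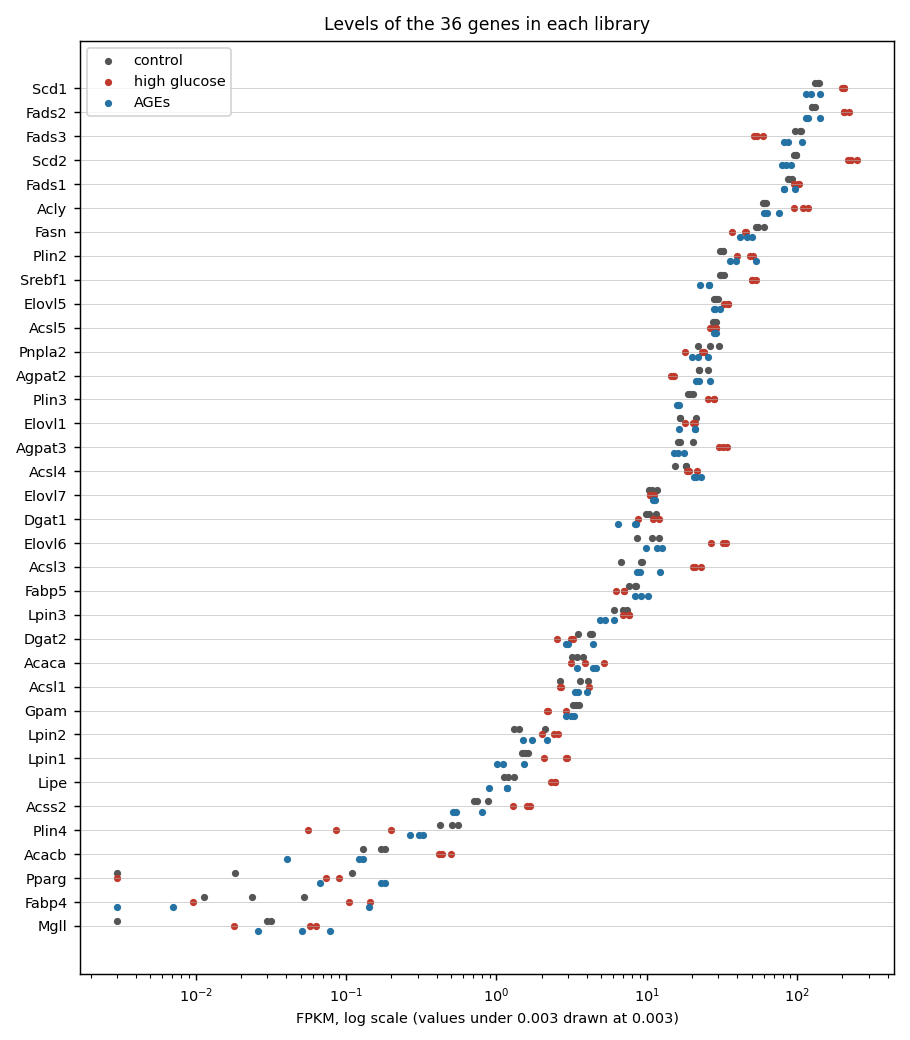
Level of each of the 36 genes in each of the 9 libraries, in FPKM on a log axis, with grey points for control, red for high glucose and blue for AGEs, and genes ordered by their control mean. Scd1, Fads2 and Fads3 lead in control at 136.5, 127.5 and 102.4 FPKM, and Pparg, Fabp4 and Mgll lie at the bottom.

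In high glucose both enzymes of acetyl-CoA supply, 3 of 5 desaturases and the elongase Elovl6 were higher than in control, with Scd2 and Elovl6 more than 2-fold up. RNA of fatty acid synthase, of Fads3, and of the acyltransferases Gpam and Agpat2 was lower. Of the 36 genes, 20 changed at an adjusted p under 0.05 (edgeR quasi-likelihood test, Benjamini-Hochberg over all 17680 genes), 13 higher and 7 lower. That is 55.6% of the 36, against 39.3% of all genes tested, with 19.6% of all genes higher and 19.7% lower. The 36 genes were chosen with earlier results of these data known, so this share is not a test of the list. The median log2 fold change was 0.12 over the 36 genes and 0.029 over all genes, and genes of the list changed in both directions. On the FPKM scale, tested with limma, the split was 15 higher and 5 lower; there the median of all genes itself lay higher, at 0.171 with a pseudocount of 0.1 FPKM, and 67.9% of all called genes were higher, against 49.9% on counts. Fold changes below are on counts, in CPM with library scaling factors. In RNA from whole cultures, more RNA per cell and more cells of a type cannot be told apart.

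**Figure D2:**
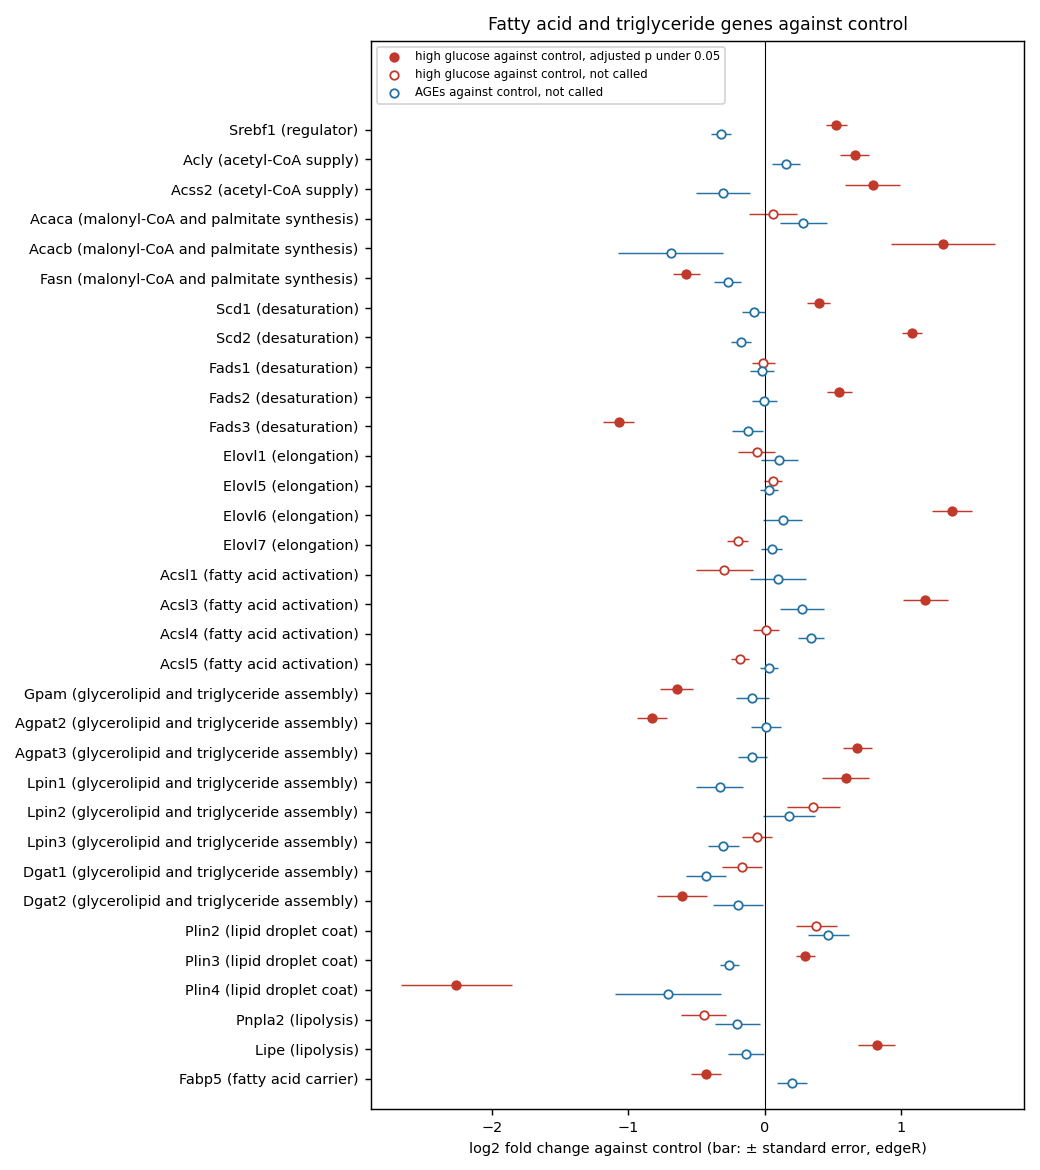
Log2 fold change of 33 of the genes, by role, in high glucose (red) and AGEs (blue) against control, with the standard error as bars and filled points where the adjusted p was under 0.05. High glucose points reach from Plin4 at -2.26 to Elovl6 at 1.38 and 20 are filled, whereas no AGEs point is; the 3 genes under 1 CPM are not drawn.

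Srebf1 (chromosome 11, 60199089 to 60222581, minus strand, GRCm38) gave 201, 199.8 and 214 CPM in the control libraries, 294, 306 and 286 CPM in high glucose and 148, 170.1 and 175 CPM with AGEs. All high glucose libraries lay above and all AGEs libraries below the control range. The rise in high glucose was 1.44-fold (log2 fold change 0.53, SE 0.076, adjusted p = 0.000525). Srebf1 shares 109 exon bases (1.93% of its own) with Rai1 on the opposite strand, which has 13158 counts against 135364. Rai1 rose as well (log2 0.55, adjusted p = 0.0263), and its part in the Srebf1 counts was not tested. The table holds 1 value per gene, so the alternative starts of Srebf1, which give different SREBP-1 forms, were not separated. Pparg, in contrast, stayed at or below 0.637 CPM in each library, with 0 CPM in control library 1 and high glucose library 1, and showed no call.

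Both enzymes that make acetyl-CoA in the cytosol rose in high glucose. Acly, ATP citrate lyase, which splits exported citrate, measured 369.5, 377 and 363 CPM in control libraries, 526, 589.8 and 636 CPM in high glucose and 389, 372 and 476 CPM in AGEs libraries. The lowest high glucose library lay above every other one, and the rise was 1.58-fold (log2 0.66, SE 0.10, adjusted p = 0.000855). Acss2, which makes acetyl-CoA from acetate, was far scarcer. Its libraries read 10.5, 8.64 and 8.4 CPM for control, 17.8, 16.4 and 13.4 CPM for high glucose and 6.07, 6.46 and 9.74 CPM for AGEs, a 1.73-fold rise in high glucose without overlap (log2 0.79, SE 0.20, adjusted p = 0.0116). Acss2 shares 395 exon bases with Gss on the opposite strand, which has 40477 counts against 6656 for Acss2; the strand setting of the counting is not given, and Gss did not pass the test (log2 -0.11, adjusted p = 0.39). On the log2(FPKM + 1) scale, which understates changes of low genes, the Acss2 difference was 0.50.

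At the malonyl-CoA step, 1 of 2 carboxylases was called, where 39.3% of all genes were. Acaca, the cytosolic acetyl-CoA carboxylase that makes malonyl-CoA, gave 63.2, 74 and 68.2 CPM, 56.2, 67.7 and 90.5 CPM and 87.4, 68.9 and 93.9 CPM in control, high glucose and AGEs libraries. These ranges overlap, and no difference was detected (log2 0.062, SE 0.17, adjusted p = 0.817 for high glucose). Of its 50-base stretches 30.4% recur in other genes, nearly all in the copy Gm5182, so its counts are uncertain. Acacb, the carboxylase of the mitochondrial surface, rose from a very low level: its control libraries gave 2.06, 1.89 and 1.46 CPM, those of high glucose 5.01, 4.28 and 4.09 CPM and those of AGEs 0.459, 1.46 and 1.43 CPM. No high glucose library overlapped the others, and the log2 difference was 1.31 (SE 0.38, adjusted p = 0.022). That call was lost without control library 2, control library 3 or high glucose library 1 (adjusted p = 0.0557, 0.0767 and 0.0667), and on the log2(FPKM + 1) scale the difference was 0.32.

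Fasn, fatty acid synthase, which builds palmitate, went the other way. It gave 678, 690.0 and 765 CPM in control libraries, 424, 509.8 and 497 CPM in high glucose and 587, 531 and 651 CPM with AGEs. High glucose libraries were the lowest, AGEs libraries lay between, and the 3 ranges did not overlap. The fall in high glucose was 1.49-fold (log2 -0.58, SE 0.10, adjusted p = 0.00144). Set against each other in FPKM, Acly to Fasn stood at 1.08 ± 0.0849 in control (SD, n = 3), 2.54 ± 0.131 in high glucose and 1.45 ± 0.073 with AGEs, with no overlap between groups.

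Desaturases put double bonds into acyl chains, and 4 of the 5 on the list changed (80.0%, against 39.3% of all genes). Scd2 (chromosome 19, 44293674 to 44306864, plus strand), a stearoyl-CoA desaturase that makes monounsaturated fatty acids, read 608, 616 and 624 CPM in control libraries, 1247, 1267 and 1395 CPM in high glucose and 533, 509.6 and 596 CPM with AGEs. Every high glucose library was about double the control range, a 2.12-fold rise (log2 1.08, SE 0.075, adjusted p = 8.96e-06). Its neighbour Scd1, an enzyme of the same activity, rose less: 781, 787 and 747 CPM in control libraries, 1047, 989 and 1011 CPM in high glucose and 705, 659 and 826 CPM in AGEs libraries. High glucose again lay above both other groups (1.32-fold, log2 0.40, SE 0.083, adjusted p = 0.00441). The order of the pair therefore turned: per length, Scd2 stood at 0.715 ± 0.0284 of Scd1 in control (SD, n = 3), at 1.15 ± 0.0846 in high glucose and at 0.672 ± 0.0233 with AGEs. Of the 50-base stretches of Scd1 and Scd2, 4.56% and 3.97% recur in other genes, mostly in each other or in Scd3.

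The neighbouring genes Fads2 and Fads3 moved in opposite directions. Fads2, the delta-6 desaturase that opens the synthesis of long polyunsaturated fatty acids, measured 479, 474 and 503 CPM in control libraries, 709.9, 738 and 682 CPM in high glucose and 454, 443 and 558 CPM with AGEs. It rose 1.46-fold with no overlap (log2 0.55, SE 0.09, adjusted p = 0.0011). Fads3 (chromosome 19, 10041569 to 10060110, plus strand), which acts on sphingoid bases, fell from 428, 452 and 466 CPM in control libraries to 234, 208 and 199 CPM in high glucose, against 362, 382 and 489 CPM with AGEs. All 3 high glucose libraries lay far below the other 6 (2.1-fold lower, log2 -1.07, SE 0.12, adjusted p = 9.44e-05). Fads2 to Fads3, per length, went from 1.25 ± 0.0405 in control to 3.84 ± 0.306 in high glucose and was 1.36 ± 0.0709 with AGEs. Fads1, the delta-5 desaturase of the same cluster, had overlapping ranges and no call: its group means were 496.4, 493.3 and 490.0 CPM in control, high glucose and AGEs libraries. Summed over the 5 desaturases, the level was 553.2 ± 8.73 FPKM in control, 801.7 ± 8.2 FPKM in high glucose and 516.6 ± 54.7 FPKM with AGEs. In FPKM all genes lay higher in high glucose by the median, and Fads1, level in CPM, went from 89.2 to 100.1 FPKM.

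Of the 4 elongases, Elovl6 alone was called in high glucose (25.0%, against 39.3% of all genes). Elovl6 (chromosome 3, 129532355 to 129634971, plus strand) lengthens palmitate to stearate, the substrate of the Scd enzymes. It gave 81.2, 89.3 and 64.5 CPM in control libraries, 215, 176 and 219 CPM in high glucose and 87, 74.2 and 96.5 CPM in AGEs libraries. Each high glucose library was well above all others, a 2.59-fold rise (log2 1.38, SE 0.15, adjusted p = 8.9e-05), the largest among the 36 genes called higher. Elovl7, an elongase of saturated very long chains, measured 54.2, 49.7 and 47.9 CPM, 43.8, 43.1 and 45.5 CPM and 52.5, 51.2 and 53.6 CPM in control, high glucose and AGEs libraries. High glucose lay below both other groups, but the difference from control missed the threshold (log2 -0.20, SE 0.076, adjusted p = 0.0674). DESeq2 called it lower (adjusted p = 0.0415), whereas on the log2(FPKM + 1) scale its difference was only -0.018 (limma, adjusted p = 0.837). Elovl1 and Elovl5, with control means of 57.5 and 117.6 CPM, were not called (log2 -0.057 and 0.06, adjusted p = 0.782 and 0.515). The Elovl1 sign flips on the FPKM scale, where Elovl5 was called higher (adjusted p = 0.00942 with a pseudocount of 1 FPKM).

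**Figure D3:**
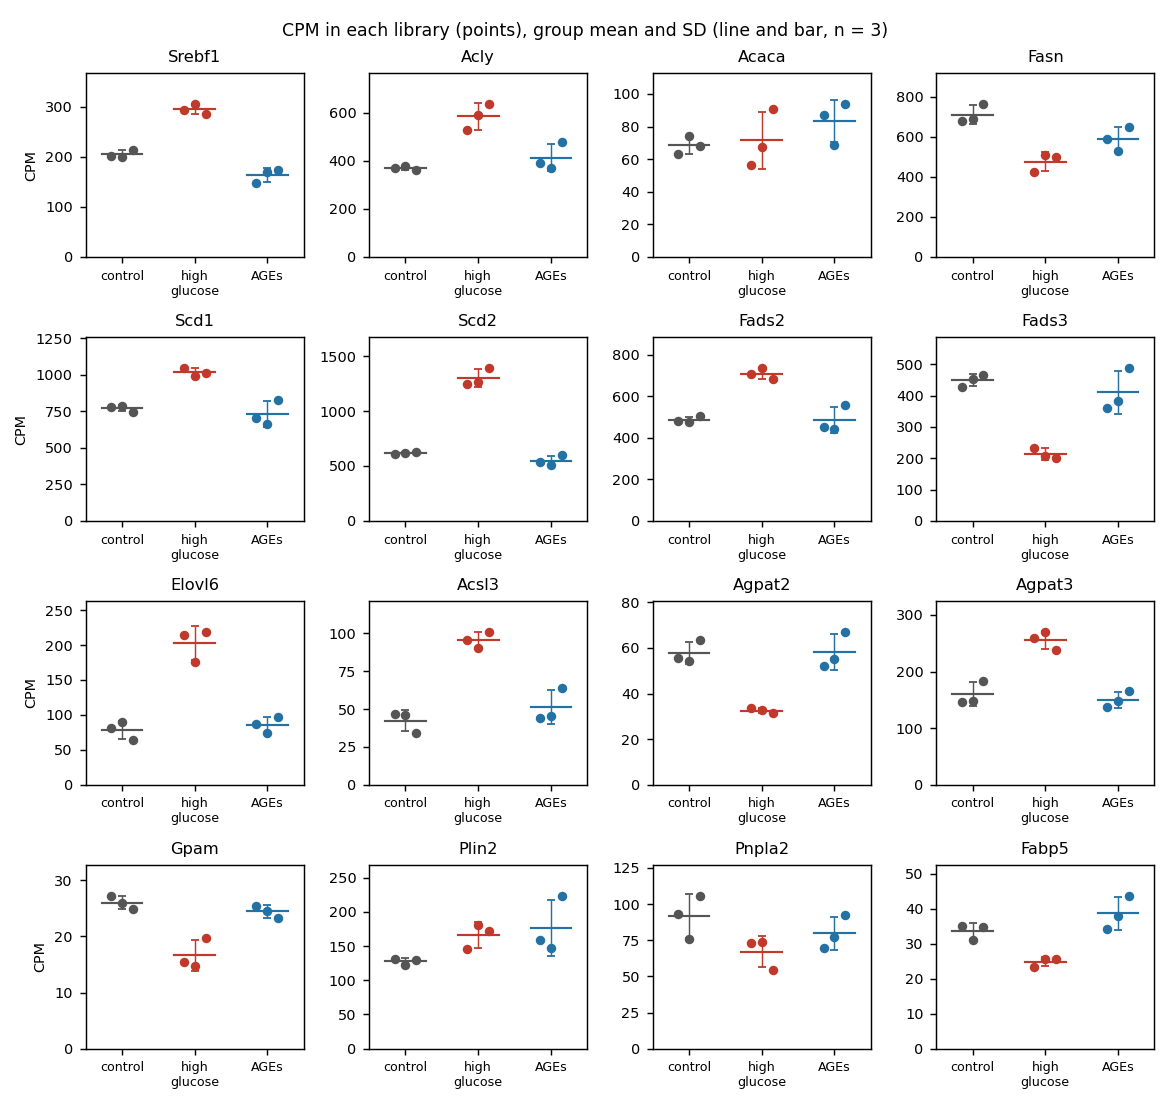
CPM of 16 of the genes in each library (points), with the group mean as a line and the SD as a bar (n = 3), on axes that start at 0. High glucose points lie above all others for Srebf1, Acly, Scd1, Scd2, Fads2, Elovl6, Acsl3 and Agpat3 and below all others for Fasn, Fads3, Agpat2, Gpam and Fabp5.

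Promoter sequence of the members with the largest called rise and fall among genes of at least 1 FPKM, Elovl6 and Fads3, is shown because these are the ends of the response to high glucose, and that of Fasn because it fell while Acly and Scd2 rose; Fasn was chosen after its values were seen. Each runs 5′ to 3′ on the gene's strand from 250 bases before the start to 50 after it, from RefSeq, build GRCm38.p6, with capitals for the motif CCAAT on either strand. The windows are chr3:129532136-129532435 on the plus strand for Elovl6, chr19:10041298-10041597 on the plus strand for Fads3, and chr11:120824498-120824797 on the minus strand for Fasn.
Elovl6: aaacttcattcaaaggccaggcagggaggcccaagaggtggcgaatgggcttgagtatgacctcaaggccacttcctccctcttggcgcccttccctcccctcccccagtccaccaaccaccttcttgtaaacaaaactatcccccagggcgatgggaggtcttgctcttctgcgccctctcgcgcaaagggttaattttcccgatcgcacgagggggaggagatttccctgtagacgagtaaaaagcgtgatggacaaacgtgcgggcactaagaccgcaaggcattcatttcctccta
Fads3: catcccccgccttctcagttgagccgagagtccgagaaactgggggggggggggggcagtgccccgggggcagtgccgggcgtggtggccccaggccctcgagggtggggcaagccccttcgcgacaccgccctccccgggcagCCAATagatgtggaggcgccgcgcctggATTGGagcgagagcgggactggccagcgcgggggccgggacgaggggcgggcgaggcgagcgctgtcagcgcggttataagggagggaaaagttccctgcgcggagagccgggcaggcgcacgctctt
Fasn: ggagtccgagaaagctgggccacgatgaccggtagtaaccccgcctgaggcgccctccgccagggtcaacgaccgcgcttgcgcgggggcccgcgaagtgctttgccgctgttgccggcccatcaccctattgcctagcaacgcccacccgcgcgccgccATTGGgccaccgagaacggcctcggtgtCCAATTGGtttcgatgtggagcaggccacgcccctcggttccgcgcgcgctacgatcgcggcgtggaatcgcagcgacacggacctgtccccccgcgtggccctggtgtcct
The Elovl6 window holds none of the 3 motifs searched. The Fads3 window has CCAAT 106 bases and, on the other strand, 78 bases before the start. In the Fasn window it lies 90, 62 and 59 bases before the start, and the last 2 overlap on opposite strands. Over the 29 of the 36 genes with a RefSeq promoter, CCAAT was present in 14 (48.3%), against 37.9% of all 27025 promoters. It was in 6 of 11 promoters of genes higher in high glucose, 4 of 5 of genes lower and 4 of 13 of genes not called. The E-box CACGTG was in 6 of 29 (20.7%), against 7.24% of all promoters, and 5 of those 6 belong to genes not called. The sterol regulatory element TCACNCCAC, searched on both strands like the others, was in none of the 29 windows and in 1.22% of all. For so rare a motif, 29 windows are too few to tell the list from all promoters. Scd1, Scd2, Fads1, Dgat1, Dgat2, Fabp4 and Fabp5 had no window, and only the first listed start of each gene was searched.

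Acyl-CoA synthetases activate fatty acids before use. Acsl3, the form of the endoplasmic reticulum and of young lipid droplets, measured 46.8, 45.8 and 34.3 CPM in control libraries, 95.8, 90.1 and 101 CPM in high glucose and 43.8, 45.6 and 64 CPM with AGEs. It was 2.26-fold higher in high glucose and its libraries did not overlap the others (log2 1.18, SE 0.17, adjusted p = 0.000447). Acsl3 shares 244 exon bases with Utp14b on the same strand, which fell in high glucose (log2 -1.20, adjusted p = 0.000203). The other 3 synthetases were not called in high glucose. Acsl4, which prefers arachidonic acid, gave 115, 113 and 96.1 CPM in control libraries, 107, 101 and 118 CPM in high glucose and 133, 131 and 148 CPM with AGEs, so that only the AGEs libraries stood clear of the rest, on the high side. Acsl5, a mitochondrial and reticulum form, read 162, 155 and 159 CPM, 147, 142 and 130.4 CPM and 162, 161 and 163 CPM in the same order, with high glucose below both other groups but short of the threshold against control (log2 -0.18, adjusted p = 0.0532). For Acsl5 DESeq2 made the call (adjusted p = 0.0419), as did edgeR when high glucose library 1 was left out (0.0479), whereas on the log2(FPKM + 1) scale the difference was -0.0053 (limma, adjusted p = 0.945). Acsl5 shares 404 exon bases (8.31% of its own) with Zdhhc6 on the opposite strand, which has 41899 counts against 93128. Zdhhc6 was not called in high glucose (log2 -0.053, adjusted p = 0.678). Acsl1, the main synthetase of fat and liver, spread from 28.1 to 48.8 CPM with overlap in all groups (adjusted p = 0.299).

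Triglyceride assembly was split, with 2 of 8 genes higher and 3 lower in high glucose. That is 62.5% called, against 39.3% of all genes, with 19.6% of all genes higher and 19.7% lower. Gpam, the mitochondrial acyltransferase that starts the pathway, fell from 27.3, 25.9 and 24.9 CPM in control libraries to 15.4, 14.7 and 19.7 CPM in high glucose, and AGEs libraries gave 25.5, 24.5 and 23.3 CPM. High glucose lay below all other libraries (1.56-fold lower, log2 -0.65, SE 0.12, adjusted p = 0.00271), with -0.35 on the log2(FPKM + 1) scale. Agpat2, which adds the second acyl chain and is mutated in congenital lipodystrophy in humans, fell from 55.4, 54.4 and 63.4 CPM to 33.7, 32.6 and 31.3 CPM, with 52.2, 55.3 and 67.2 CPM in AGEs libraries. Its high glucose libraries were tightly grouped and well below the rest (1.77-fold lower, log2 -0.83, SE 0.11, adjusted p = 0.000334). Agpat3, another acyltransferase of the family, rose from 146, 149 and 184 CPM in control libraries to 259, 270.5 and 238 CPM in high glucose, against 138, 147 and 165 CPM with AGEs. No library outside high glucose reached its range (1.6-fold, log2 0.68, SE 0.11, adjusted p = 0.000922).

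Lipins remove the phosphate from phosphatidic acid. Lpin1 gave 17.2, 18.4 and 17.8 CPM in control libraries, 21.5, 29.8 and 29.5 CPM in high glucose and 17.7, 12.9 and 12 CPM in AGEs libraries, with high glucose library 1 well under the other two. It rose 1.51-fold (log2 0.59, SE 0.17, adjusted p = 0.0227), a call lost without any 1 control library or without high glucose library 2 or 3 (adjusted p from 0.0512 to 0.0789). Lpin2 and Lpin3 had overlapping ranges and no call (adjusted p = 0.179 and 0.744). The last step, diacylglycerol to triglyceride, is shared by Dgat1 and Dgat2. Dgat1 measured 35.3, 36.1 and 40.8 CPM in control libraries, 35.2, 37.5 and 27.2 CPM in high glucose and 29.4, 30.4 and 23.6 CPM with AGEs; control and high glucose overlapped (log2 -0.17, SE 0.14, adjusted p = 0.407). Dgat2, which prefers newly made fatty acids, was at 15, 15.2 and 12.5 CPM in control libraries, 10.3, 9.89 and 7.87 CPM in high glucose and 10.8, 15.8 and 10.7 CPM with AGEs. It was 1.52-fold lower in high glucose (log2 -0.61, SE 0.18, adjusted p = 0.0257); the call was lost without control library 1 or 2, without high glucose library 2 or 3 (adjusted p from 0.0518 to 0.0883), and on the FPKM scale (0.094 and 0.0883), where the difference was -0.34 with a pseudocount of 1 FPKM.

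Perilipins coat lipid droplets and limit access of lipases. Plin2, the perilipin found on droplets of most cells, read 131, 123 and 130.1 CPM in control libraries, 146, 181 and 172 CPM in high glucose and 159, 147 and 224 CPM with AGEs. Each treated library lay above the control range, but the spread was wide and neither comparison passed (log2 0.38, SE 0.15, adjusted p = 0.0736 for high glucose; log2 0.47, SE 0.15, adjusted p = 0.317 for AGEs). AGEs library 3, at 224 CPM, carried much of that spread. Without it the AGEs difference was 0.26 on the log2 scale (adjusted p = 0.442), and high glucose against control passed (adjusted p = 0.00956), as it did with DESeq2 (0.0471), on the FPKM scale (0.0163 and 0.0154) and among genes with a mean of at least 1 CPM (0.0469). Plin3 rose modestly, from 85.5, 81.9 and 89.9 CPM in control libraries to 110.5, 107 and 98.5 CPM in high glucose, with 71.2, 72 and 71.8 CPM in AGEs libraries. The 3 ranges stood apart, high glucose on top and AGEs at the bottom (log2 0.30, SE 0.071, adjusted p = 0.00831 for high glucose), and the rise was 0.45 on the log2(FPKM + 1) scale. Plin4 was scarce, at 3.12, 3.69 and 4.12 CPM in control libraries, 1.31, 0.374 and 0.567 CPM in high glucose and 2.38, 2.27 and 2.02 CPM with AGEs. It fell 4.79-fold in high glucose (log2 -2.26, SE 0.41, adjusted p = 0.00188), a size that depends on few counts; on the log2(FPKM + 1) scale the difference was -0.43.

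Lipolysis starts with Pnpla2, adipose triglyceride lipase. Its libraries gave 93.1, 75.7 and 106 CPM in control libraries, 72.8, 74 and 54.6 CPM in high glucose and 69.7, 76.9 and 92.5 CPM with AGEs. High glucose lay just below control and missed the threshold (log2 -0.45, SE 0.16, adjusted p = 0.0545); the call was made with DESeq2 (0.0285), without control library 2 (0.027) and without AGEs library 3 (0.0456). Lipe, hormone-sensitive lipase, which takes the next acyl chain, rose 1.77-fold from a low level. Its values were 8.18, 8.8 and 7.71 CPM in control libraries, 15.2, 14.8 and 13.7 CPM in high glucose and 8.12, 8.05 and 6.28 CPM with AGEs, with no overlap of high glucose and the rest (log2 0.82, SE 0.13, adjusted p = 0.00106). An antisense gene, 4732471J01Rik, overlaps 15.6% of its exon bases but has 524 counts against 6201. Mgll, the last lipase, ranged from 0 to 0.474 CPM over all libraries, too few counts to compare.

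Of the carriers, Fabp4 was at 0.0785, 0.291 and 0.151 CPM in control libraries, 0.0483, 0.493 and 0.667 CPM in high glucose and 0.749, 0.0435 and 0 CPM with AGEs, near the limit of detection. Fabp5, the form of skin and macrophages, was measured at 35, 31 and 34.7 CPM in control libraries, 23.3, 25.7 and 25.6 CPM in high glucose and 34.3, 37.9 and 43.8 CPM in AGEs libraries. High glucose lay below every other library (1.35-fold lower, log2 -0.43, SE 0.11, adjusted p = 0.0115), and the call was lost on the FPKM scale (0.0744 and 0.0702), where the difference was -0.23 with a pseudocount of 1 FPKM. Its copy Gm6166, with 9346 counts against 19570, fell as well (log2 -0.53, adjusted p = 0.019), and reads of both may be split between them.

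AGEs did not give a called change of any of the 36 genes against control. With edgeR, 0 of 36 passed at an adjusted p under 0.05, against 15 of all 17680 genes (0.0848%); limma on log2(FPKM + 1) also called 0 of 36, and 0.0848% of all genes. DESeq2 called 1 of 36, against 1.84% of all genes. An unadjusted edgeR p under 0.05 was found for 8 of the 36 (22.2%) and for 12.4% of all genes. The DESeq2 call was Srebf1, whose AGEs libraries lay below control by -0.32 on the log2 scale (SE 0.076, adjusted p = 0.232 with edgeR and 0.0267 with DESeq2). AGEs and control ranges did not overlap for 8 genes (22.2%), 2 above and 6 below, against 19.2% of all genes, so the share is close to the background. Above were Plin2 and Acsl4 (log2 0.34, SE 0.10, adjusted p = 0.272). Below were Srebf1, Fasn (log2 -0.27, SE 0.10, adjusted p = 0.35), Scd2, Dgat1, Plin3 and Plin4. Dgat1 had the lowest of these AGEs levels relative to control among genes over 10 CPM (log2 -0.43, SE 0.15, adjusted p = 0.333). Without AGEs library 3 the count was again 0. A p that misses the threshold does not show that these levels are equal.

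Set directly against high glucose, AGEs libraries differed in 22 of the 36 genes (61.1%), 9 higher and 13 lower in AGEs, against 39.9% of all genes (19.7% higher and 20.2% lower). This comparison shares the high glucose libraries with the one against control, so its values are given beside those above and are not a separate line of evidence. On the FPKM scale the split was 4 higher and 16 lower, where 29.6% of all called genes were higher with a pseudocount of 1 FPKM, against 49.4% on counts. Lower in AGEs were Srebf1 (log2 -0.85, SE 0.076, adjusted p = 3.31e-05), Scd2 (log2 -1.25, SE 0.075, adjusted p = 3.39e-06) and Elovl6 (log2 -1.24, SE 0.15, adjusted p = 0.000147). Acly, Acss2, Acacb, Scd1, Fads2, Acsl3, Agpat3, Lpin1, Plin3 and Lipe were lower too, by -0.48 (Scd1) to -2.00 (Acacb) on the log2 scale. Higher in AGEs were Fads3 (log2 0.94, SE 0.11, adjusted p = 0.000185), Agpat2 (log2 0.84, SE 0.11, adjusted p = 0.000295), Plin4, Fabp5, Gpam and Fasn. The Gpam call was lost on the FPKM scale (adjusted p = 0.0643 and 0.0596), where its difference was 0.27 with a pseudocount of 1 FPKM, against 0.56 on counts. Acsl4 (adjusted p = 0.0199), Elovl7 (0.0267) and Acsl5 (0.0282) were called higher in AGEs here and were not called between high glucose and control. For these 3 and for Fasn (adjusted p = 0.0333) the call was lost on the FPKM scale and without AGEs library 3 (0.0601, 0.056, 0.0512 and 0.0972). Other single libraries ended these calls too. Acsl4 lost it without high glucose library 1 or 2, and Fasn without high glucose library 1 or 3 or AGEs library 1. Elovl7 lost it without high glucose library 1 or 2 or AGEs library 1 or 2, Acsl5 without high glucose library 2 or 3 or AGEs library 1 or 2, and both with no filter on low counts. Without AGEs library 3, 18 of the 36 were called, 5 higher and 13 lower. Of all genes in that setting, 6876 of 18408 were called, and 49.2% of those were higher. Taken as a share of all counts, the 36 genes held 0.535 ± 0.00818% in control (SD, n = 3), 0.742 ± 0.02% in high glucose and 0.508 ± 0.0445% with AGEs.

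Further genes of the pathway, 68 on a list of regulators, precursor supply, elongation, uptake, assembly and droplets, were read beside the 36. Of the 57 that could be tested, 11 were higher and 11 lower in high glucose than in control (38.6%), close to the 39.3% of all genes. Against high glucose, 9 were higher and 15 lower in AGEs (42.1%, against 39.9% of all genes). Against control, 0 were called with edgeR in AGEs, where 6 of 57 had an unadjusted p under 0.05 (12.4% of all genes did). DESeq2 was read only for the genes with the smallest p in the comparisons with high glucose, and called Me1 among them (adjusted p = 0.00237). Of all genes, DESeq2 called 1.84%. The called genes with the smallest p in high glucose included Dbi, the acyl-CoA binding protein, which rose from 167.6 ± 7.09 to 431.5 ± 51.1 CPM (log2 1.36, SE 0.093, adjusted p = 8.03e-06). Rxra, a partner of lipid-sensing nuclear receptors, rose from 21.5 ± 1.0 to 47.4 ± 2.28 CPM (log2 1.14), Vldlr, which takes up lipoprotein lipid, by 0.75 and Me1, the malic enzyme that makes NADPH, by 0.48 on the log2 scale. Scap, which escorts SREBP proteins to the Golgi, fell from 113.8 ± 3.85 to 79.8 ± 2.75 CPM (log2 -0.51, SE 0.065, adjusted p = 0.000244).

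The further genes of assembly and droplets moved in both directions. Gpat3, the acyltransferase of the reticulum that acts beside Gpam, fell from 35.99 ± 2.3 to 15.9 ± 1.63 CPM in high glucose (log2 -1.17, SE 0.14, adjusted p = 0.000187). Fitm2, which helps droplets bud from the reticulum, fell from 55.4 ± 2.27 to 27.6 ± 0.637 CPM (log2 -1.004, SE 0.11, adjusted p = 8.44e-05), and Aup1, a protein of the droplet surface, by 0.80 on the log2 scale. Of the 10 droplet genes on this list that could be tested, 3 rose (Plin5, Cideb and Hsd17b11) and 5 fell (Fitm2, Aup1, Bscl2, Hilpda and Abhd5), where 19.6% of all genes rose and 19.7% fell. Plin5 and Cideb rose from low levels, with means of 1.13 to 2.72 CPM and 0.958 to 2.05 CPM. Plin5 passed narrowly (adjusted p = 0.0469). Abhd5 is the activator of the Pnpla2 lipase, and Bscl2 encodes seipin, which shapes growing droplets. Of the 7 assembly genes tested, Gpd1 rose and Gpat3, Agpat4 and Agpat5 fell (57.1% called, against 39.3% of all genes). Gpd1, at a control mean of 2.67 CPM, also passed narrowly (adjusted p = 0.0481). The 16 alternatives were not read for Plin5, Cideb, Gpd1 or Gpat4.

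**Figure D4:**
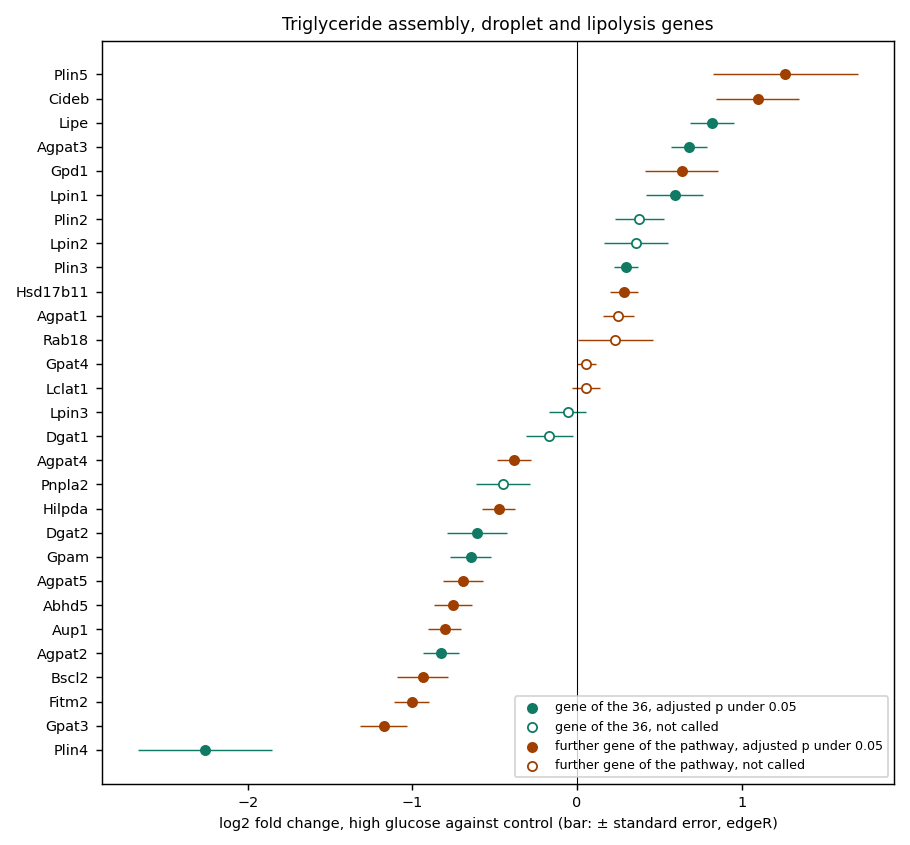
Log2 fold change in high glucose against control of genes of triglyceride assembly, droplets and lipolysis, ordered by size, with the standard error as bars; green marks genes of the 36, brown further genes of the pathway, and filled points an adjusted p under 0.05. Of 13 green points 4 are filled on each side of 0, and of 16 brown points 4 are filled above and 8 below; Mgll and Hsd17b13, under 1 CPM, are not drawn.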

How the data were processed

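Per gene and library, the deposited table of the authors holds raw counts and FPKM values, per the file headers. Reads were handled with cutadapt 1.9 and FastQC on build GRCm38, per the submitters' processing notes; no aligner, counter, annotation release or strand setting is stated in the labels or the table. A count of 0 stands as 0.0001 in the deposited FPKM columns. Low counts fell on 4 and 8 more often than on their neighbours (9186 and 4896 entries, against 2519 at 3 and 1632 at 7), so 1 fragment may have added several counts.

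Counts were filtered by expression in the groups, scaled by TMM (factors 0.935 to 1.10) and tested with edgeR 4.0.16 in R 4.3.3, with all 9 libraries in 1 fit, two-sided, and Benjamini-Hochberg adjustment over 17680 genes; a change was called at an adjusted p under 0.05. The scripts were tested on simulated data. CPM used the same factors. Replicate libraries differed by more than sampling noise. The 16 alternatives were DESeq2 1.42.0, other size factors, no filter or a mean of at least 1 CPM, limma 3.58.1 on log2(FPKM + 1) and log2(FPKM + 0.1), a replicate block, and leaving out each library. The common biological coefficient of variation was 0.278.

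The 36 genes, the further pathway genes and the markers were chosen with earlier results of these data known. Per-library CPM was given for genes called in a comparison and for a fixed set of central enzymes. Further genes were described by smallest p, at most 8 per comparison. The other further genes of assembly and droplets called in high glucose against control were named as well. Gpat4, which was not called, was added beside Gpat3 and Gpam after its values were seen.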

Additional observations from a re-analysis of the deposited data

How the results depend on the processing

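Of the 20 genes called in high glucose against control, 16 were called in all 16 alternatives and all 20 kept their direction; Acacb, Dgat2, Fabp5 and Lpin1 each lost the call in some, and 7 further genes gained one in some. The number called was 18 to 24, with 24 under DESeq2 and 18 to 22 when a library was left out. Of all genes, DESeq2 called 7594 of 17680. Leaving out a library gave 5737 of 18479 (without control library 1) to 7308 of 18408 (without AGEs library 3). Against high glucose, 18 to 22 of the 36 genes were called in AGEs, 17 of 22 in all alternatives and 22 of 22 in the same direction. Of all genes, DESeq2 called 7704 of 17680 there. A library left out gave 5975 of 18269 (without high glucose library 2) to 7134 of 18473 (without control library 3). In AGEs against control the count among the 36 was 0 except under DESeq2, where it was 1. The cause was not tested. Same-numbered libraries did not deviate together (correlations from -0.067 to 0.084, and the same number was the best match in 2 of 18 comparisons), so the numbers do not pair them; with a replicate block 19, 0 and 20 genes were called in the 3 comparisons, without Lpin1 in high glucose against control (adjusted p = 0.0519) and without Elovl7 and Acsl5 in AGEs against high glucose (0.0577 and 0.0555). Of all 17680 genes, the replicate block called 6322, 5 and 6390 in the 3 comparisons. Leaving out 1 library moved no called log2 fold change of the 36 by over 1.5 times. The FPKM scale moved it by that much for 7 genes called in high glucose against control and 9 called in AGEs against high glucose, among the latter Acacb (-0.40 with a pseudocount of 1 FPKM), Acss2 (-0.64), Fabp5 (0.39) and Plin4 (0.22). Low counts limit Pparg, Mgll and Fabp4, with 166, 138 and 168 counts over all 9 libraries. DESeq2 gave these genes no adjusted p in AGEs against control.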
